A study of Mus musculus with 8 samples.

Results

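Isolated wild type keratinocytes were compared with wild type skin collected 4 days after hair plucking, over the genes expressed in at least 1 of these samples. A gene entered when its FPKM, the reads of a gene scaled by its length and by the mapped reads of the library, was at least 10 in either library. Genes were joined by symbol between the table of the keratinocytes and the table of the plucked skin, and where a symbol had more than 1 locus, that with the largest sum of the deposited values was used. Of 21464 symbols listed in both tables, 7410 genes passed, 4563 of them in both libraries, 809 only in keratinocytes and 2038 only in plucked skin.

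The study compared JunB cKO mice, in which a Cre recombinase under the K14 promoter deletes the floxed JunB alleles in the basal layer of the epidermis, with wild type mice, by RNA-seq of keratinocytes, plucked skin and wounds. The WT keratinocytes (C57BL/6, JunB +/+, no treatment) were obtained with trypsin per the labels, whereas the study elsewhere describes the unperturbed samples as dorsal skin of 60-day-old mice. The WT plucked skin (C57BL/6, JunB +/+) was depilated at postnatal day 54 and collected at postnatal day 58. Each library was made from RNA pooled from 3 samples, so that each group is represented by 1 library and no difference below has a replicate check. The JunB cKO keratinocytes and JunB cKO plucked skin (C57BL/6, JunB -/-), from the same tables, are given beside the wild type values, as are WT wounds (C57BL/6, JunB +/+, day 30 after wounding), for which the table holds the authors' value over 2 libraries. Tissue, the isolation of cells with trypsin as labelled, plucking and the separate processing of the tables changed together between the compared groups. They cannot be told apart.

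The epidermis is a layered epithelium in which basal keratinocytes attached to the basement membrane divide and move upwards, switching from keratins 5 and 14 to keratins 1 and 10 and finally forming the cornified envelope. The dermis below is built by fibroblasts that deposit collagen, and holds vessels, nerves and immune cells together with the hair follicles and sebaceous glands. A subcutaneous layer and the panniculus carnosus, a muscle, lie below the dermis of mouse skin. Immediate early genes, which include the Fos and Jun genes that encode the AP-1 transcription factors, are transcribed within minutes of a stimulus without new protein synthesis.

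The labelled tissues were checked with marker genes. All 13 basal keratinocyte genes were at an FPKM of at least 10 in both libraries. Of 23 genes of dermal fibroblasts and matrix, 21 reached this level in plucked skin and 4 in keratinocytes, and their summed FPKM was 8027 and 226, respectively. Of 19 skeletal muscle genes, 9 reached it in plucked skin and 0 in keratinocytes, where the highest of them was at 2.99 FPKM. The labels give keratinocyte as the tissue of the plucked sample but skin biopsy in its title, and the collagen, muscle and vessel genes went against the former. In the low values of genes with 1 exon and a length of 700 to 1300 bases, 1 read on 1 kb corresponded to 0.0742 FPKM in WT keratinocytes (19 loci) and 0.0769 FPKM in WT plucked skin (60 loci), which is 13.5 and 13 reads per FPKM, so that the depth behind a given FPKM was similar in both. In JunB cKO keratinocytes 0 of 204 such loci with a value above 0 lay at this step, so that depth could not be estimated there.

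Because the tables were normalized separately, log2((plucked skin + 1)/(keratinocytes + 1)) of the FPKM values was centred on its median over the 7410 genes, which was 0.67. The pseudocount of 1 understates the difference of genes with a low FPKM. After centring, 3851 genes (52.0%) lay within 2-fold, and the quartiles were at -0.92 and 0.97. A gene was called higher in a sample at a centred difference of 4-fold or more. By this limit 775 genes (10.5%) were higher in WT plucked skin and 614 genes (8.29%) were higher in WT keratinocytes. These shares over all genes are the background for the counts of each list below. The split depended on the centring, with 953 and 448 genes when the median was taken over genes at 10 FPKM in both libraries, and 1403 and 302 genes without centring. Without centring every wild type ratio of plucked skin over keratinocytes below is higher by 0.67, whereas ratios of the JunB cKO pair and of WT wounds were centred on their own medians of 0.70 and 0.51. List medians below are over all listed genes found in both tables, also those under 10 FPKM, and the median over all 21464 symbols was -0.67 on the same scale, which is the value of a gene listed at 0 in both.

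**Figure D1:**
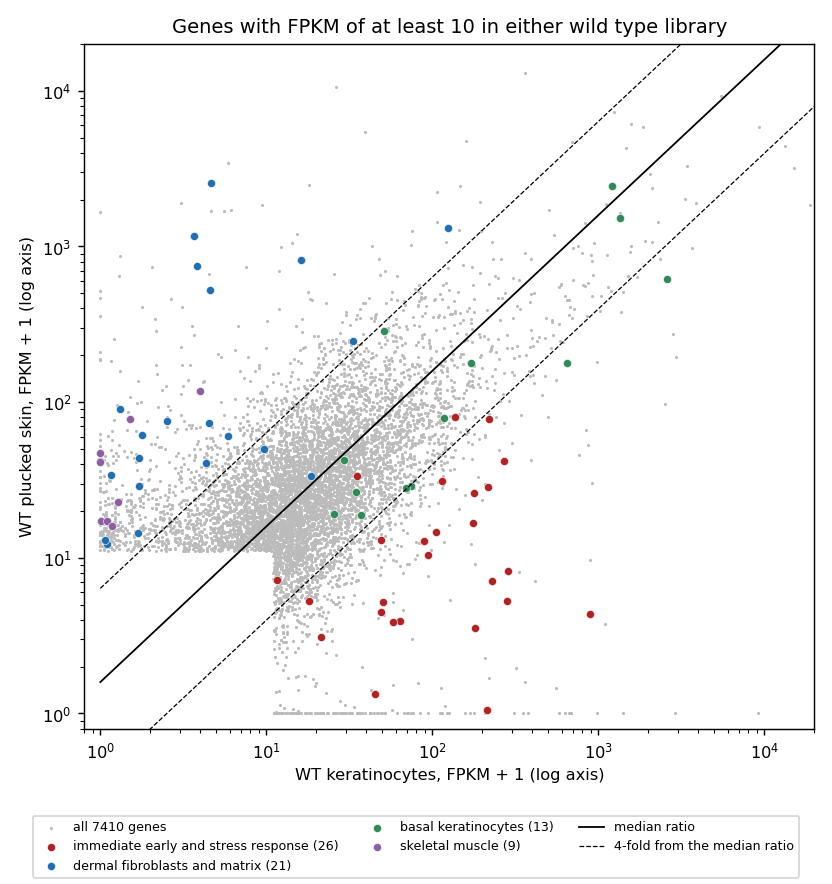
FPKM + 1 of 7410 genes in WT keratinocytes (x axis, log scale) and WT plucked skin (y axis, log scale), 1 library each, with 4 gene lists in colour, a solid line at the median ratio and dashed lines 4-fold from it. Of the 26 immediate early genes 23 lie below the lower dashed line, and 19 of the 21 fibroblast genes shown lie above the upper one.

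Immediate early and stress response genes were higher in WT keratinocytes. All 26 listed genes were at 10 FPKM or more in keratinocytes, and 11 also in plucked skin. Of the 26, 23 were called higher in keratinocytes and 0 higher in plucked skin, where 8.29% and 10.5% of all genes were called. All 26 lay below the centre. For genes that passed only through keratinocytes the limit favoured this direction, while the median is over all 26. The median centred log2 ratio of the list was -3.72, against 0 over all 7410 genes, and it ranged from -3.96 to -2.84 over 10 alternative settings. The summed FPKM was 4055 in WT keratinocytes, 2752 in JunB cKO keratinocytes, 426 in WT plucked skin, 476 in JunB cKO plucked skin and 438 in WT wounds. Both keratinocyte libraries thus exceeded the 3 skin values by several-fold.

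Among the AP-1 subunits, Fos (ENSMUSG00000021250.13, chr12:85473890-85477273 on GRCm38) was at 892 FPKM in WT keratinocytes, 514 in JunB cKO keratinocytes, 3.38 in WT plucked skin, 8.97 in JunB cKO plucked skin and 15.6 in WT wounds, with a centred log2 ratio of -8.34. Fosb was at 178, 96.7, 2.54, 0.397 and 1.39 FPKM in the same order. Fosl1, whose product forms AP-1 in growing epithelium, was at 44.4, 30.1, 0.334, 0.277 and 1.17 FPKM. For all 3 Fos genes both keratinocyte values lay above all skin values. Jun was at 215, 145, 27.6, 25.7 and 30.9 FPKM, and Jund at 114 FPKM in WT keratinocytes, 30.3 in WT plucked skin and 23.6 in WT wounds. Junb itself, which is deleted in the cKO epidermis (ENSMUSG00000052837.6, chr8:84976910-84978718), was at 268 FPKM in WT keratinocytes and 40.8 in WT plucked skin, and at 31.4 and 11.7 FPKM in the JunB cKO libraries. Its centred log2 ratio was -3.36 in wild type and -2.05 in the JunB cKO pair. All 6 subunits were called higher in WT keratinocytes, and the Jun genes differed less than the Fos genes.

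Most of the other transcription factors of the list were likewise higher in keratinocytes. Nr4a1, an orphan nuclear receptor (chr15:101266846-101274792), was at 211 FPKM in WT keratinocytes and 0.0539 in WT plucked skin (log2 ratio -8.32), and at 137 and 0.546 in the JunB cKO pair. Atf3, a stress-induced factor of the ATF family, was at 282 FPKM in WT keratinocytes and 4.25 in WT plucked skin, while the JunB cKO libraries had 217 and 33.2 FPKM. Egr1 was at 175 and 15.8 FPKM, Egr3 at 49.3 and 4.19, and Myc at 88.1 and 11.9 in wild type. Egr2 was an exception, with 34.3 FPKM in keratinocytes and 32.4 in plucked skin (log2 ratio -0.75), and the zinc finger factor Klf6 was also below the 4-fold limit (136 and 79.6 FPKM, log2 ratio -1.43). Klf4, which acts in barrier formation, was called in wild type (219 and 77.1 FPKM, log2 ratio -2.17) but not in JunB cKO (log2 ratio -1.62).

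Several genes of the list encode regulators other than transcription factors. Zfp36, which binds AU-rich mRNA and promotes its decay, was at 283 FPKM in WT keratinocytes and 7.23 in WT plucked skin. Dusp1, a phosphatase that inactivates MAP kinases, was at 227 and 6.10 FPKM. Both had similar values in JunB cKO, with 227 and 8.13 FPKM for Zfp36 and 176 and 7.99 FPKM for Dusp1. Socs3, an inhibitor of cytokine signaling, was at 62.8 and 2.93 FPKM in wild type, but at 35.5 and 35.4 FPKM in JunB cKO, where it was not called. Of the ligands of the EGF receptor, Areg was at 20.3 and 2.12 FPKM (log2 ratio -3.45), and Hbegf at 10.6 and 6.15 FPKM (log2 ratio -1.37), below the 4-fold limit. In the JunB cKO pair, where 5.07% of all genes were called in this direction, 20 of the 26 genes were called higher in keratinocytes, all of them genes also called in wild type. For WT wounds, whose ratio shares the WT keratinocyte library with this comparison, the median of the list was -3.30.

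**Figure D2:**
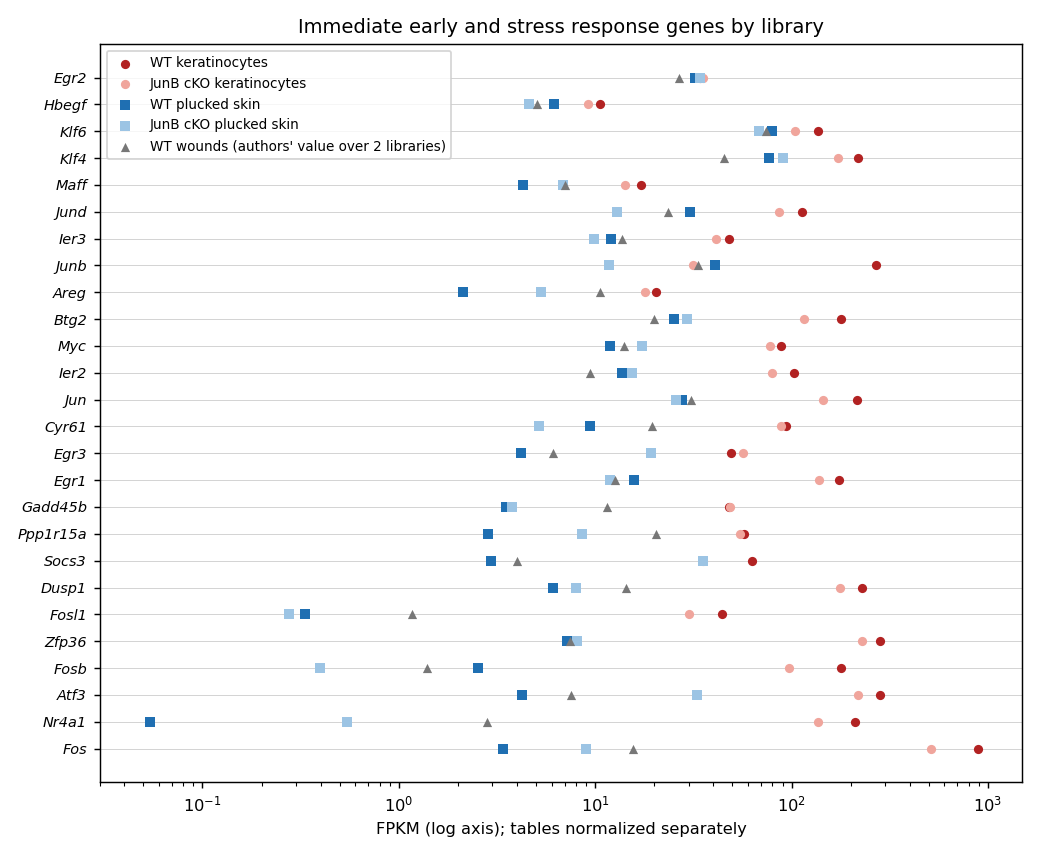
FPKM (x axis, log scale) of the 26 immediate early and stress response genes (y axis, ordered by the wild type log2 ratio) in 4 libraries and in WT wounds, with tables that were normalized separately. Red circles of both genotypes lie to the right of the blue squares for most genes, from 892 against 3.38 FPKM for Fos in wild type to 34.3 against 32.4 FPKM for Egr2.

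The promoters of these genes are shown because the genes differed together. RefSeq promoters were found for 19 of the 26 genes, and those of Egr1, Egr3, Fosl1, Myc and Hbegf, among others, are missing. Sites farther than 250 bases before the start were not looked for. The cAMP response element TGACGTCA, the binding site of CREB and ATF factors, occurred in the 250 bases before the start of 4 of the 19 genes (21.1%), and in 1.62% of all 27025 promoters. Its first part TGACG, which every TGACGTCA also contains, occurred on either strand in 10 of the 19 genes (52.6%), and in 17.9% of all promoters. The AP-1 motif TGANTCA occurred in 0 of the 19 promoters and in 6.87% of all promoters, and the CArG box, bound by serum response factor, in 1 of 19 and in 1.40% of all promoters. Of 14 promoters of the fibroblast list, 0 held TGACGTCA and 1 held TGACG. A match is a description of letters in this window and not of a bound site. The 250 bases before the start are given 5′ to 3′ on the strand of the gene (RefSeq, GRCm38.p6), with TGACG or its reverse complement CGTCA in capitals for Fos and Nr4a1, and TGACGTCA in capitals for the 4 genes that hold it.
Fos, chr12:85473640-85473889, plus strand: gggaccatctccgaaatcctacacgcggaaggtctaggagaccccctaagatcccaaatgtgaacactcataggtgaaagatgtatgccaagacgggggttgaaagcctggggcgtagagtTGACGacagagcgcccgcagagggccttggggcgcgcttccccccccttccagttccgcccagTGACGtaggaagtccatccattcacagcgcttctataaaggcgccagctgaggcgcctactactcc
Nr4a1, chr15:101266596-101266845, plus strand: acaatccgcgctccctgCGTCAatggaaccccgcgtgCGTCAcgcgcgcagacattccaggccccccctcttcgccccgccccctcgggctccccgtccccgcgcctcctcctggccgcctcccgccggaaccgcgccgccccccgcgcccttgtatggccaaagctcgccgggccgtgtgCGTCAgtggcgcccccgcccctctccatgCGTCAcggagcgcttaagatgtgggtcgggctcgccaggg
Dusp1, chr17:26508473-26508722, minus strand: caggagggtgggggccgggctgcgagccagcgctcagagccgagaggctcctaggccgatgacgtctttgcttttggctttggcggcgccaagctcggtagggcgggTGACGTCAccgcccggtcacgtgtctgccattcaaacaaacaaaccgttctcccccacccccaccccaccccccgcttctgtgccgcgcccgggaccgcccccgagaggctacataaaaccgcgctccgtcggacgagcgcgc
Btg2, chr1:134079156-134079405, minus strand: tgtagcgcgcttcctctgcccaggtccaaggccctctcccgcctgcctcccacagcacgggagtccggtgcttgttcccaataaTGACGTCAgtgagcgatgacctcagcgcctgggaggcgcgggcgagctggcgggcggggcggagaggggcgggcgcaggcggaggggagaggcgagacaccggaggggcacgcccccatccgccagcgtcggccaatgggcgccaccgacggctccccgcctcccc
Ppp1r15a, chr7:45526269-45526518, minus strand: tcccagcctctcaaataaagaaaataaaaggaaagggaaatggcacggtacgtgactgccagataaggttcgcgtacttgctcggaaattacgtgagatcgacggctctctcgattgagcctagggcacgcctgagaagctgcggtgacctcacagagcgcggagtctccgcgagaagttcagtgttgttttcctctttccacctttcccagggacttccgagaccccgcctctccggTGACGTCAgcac
Areg, chr5:91139349-91139598, plus strand: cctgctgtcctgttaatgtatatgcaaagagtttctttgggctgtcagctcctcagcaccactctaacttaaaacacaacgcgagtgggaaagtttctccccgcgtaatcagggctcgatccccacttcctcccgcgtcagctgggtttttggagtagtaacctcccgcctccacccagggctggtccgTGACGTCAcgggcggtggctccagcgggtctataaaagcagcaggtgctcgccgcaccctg

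In Fos the matches began 129 and 66 bases before the start, and in Nr4a1 4 matches lay between 233 and 40 bases before it. TGACGTCA began 143 bases before the start in Dusp1, 166 in Btg2, 61 in Areg and 12 in Ppp1r15a. Btg2, an antiproliferative gene, was at 178 FPKM in WT keratinocytes and 25.1 in WT plucked skin. Ppp1r15a, a phosphatase subunit that restores translation after stress, was at 57.1 and 2.84 FPKM.

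Of the 12 heat shock genes, 3 were called higher in WT keratinocytes and 3 higher in WT plucked skin, against 8.29% and 10.5% of all genes. Hspa1a and Hspa1b, the stress-induced members of the Hsp70 family, were at 116 and 171 FPKM in WT keratinocytes and at 11.7 and 41.8 in WT plucked skin. These 2 genes are near-identical, so that the share of reads of each is uncertain. Dnajb1, a co-chaperone of Hsp70, was at 138 and 26.7 FPKM. All 3 were called in both genotypes. In the other direction, Hspa8 (106 and 1433 FPKM), Hsp90aa1 (19.4 and 193) and Hspd1 (12.3 and 117), which have near-identical processed pseudogenes, were higher in plucked skin in both genotypes. Hsp90ab1, the most abundant of the list, was at 502 and 1725 FPKM (log2 ratio 1.11). The median of the 12 genes was 0.44. It was -1.68 when genes with such pseudogenes or a nested small RNA gene were left out and the remaining genes were centred on their own median.

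Genes of dermal fibroblasts and matrix were higher in WT plucked skin. Of 23 genes, 21 passed the limit of 10 FPKM, all but 4 of them only through plucked skin, so that the limit itself favoured this direction. By the calls, 19 were higher in plucked skin and 0 higher in keratinocytes, where 10.5% and 8.29% of all genes were called. All 23 lay above the centre, and the median is over all 23. The median centred log2 ratio was 3.35, with a range of 1.86 to 4.96 over the alternative settings. Fewer cells of a type and less RNA per cell cannot be told apart in these samples. Col3a1 (ENSMUSG00000026043.18, chr1:45311538-45349706), a fibrillar collagen, was at 3.63 FPKM in WT keratinocytes, 1.87 in JunB cKO keratinocytes, 2559 in WT plucked skin, 535 in JunB cKO plucked skin and 5055 in WT wounds. Col1a1 was at 2.66, 2.58, 1168, 527 and 2506 FPKM, and the proteoglycan Dcn at 2.81, 4.60, 754, 475 and 1432 FPKM. Skin values exceeded both keratinocyte values for these genes, and the JunB cKO plucked skin was lower than WT plucked skin.

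Not all matrix genes were near 0 in keratinocytes. Postn, an extracellular protein of tissue repair, was at 123 FPKM in WT keratinocytes and 1322 in WT plucked skin, and Vim, the intermediate filament of mesenchymal cells, at 32.4 and 247 FPKM. Thy1, which T cells also express, was at 17.5 and 32.7 FPKM and was close to the centre (log2 ratio 0.19). The collagen Col6a1, with 8.72 and 49.1 FPKM, was the other gene that was not called (log2 ratio 1.69).

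Fat, muscle and vessel genes were also higher in WT plucked skin by their list medians. In these lists every gene called higher in plucked skin passed the limit of 10 FPKM only through plucked skin, so that the limit itself favoured this direction and the calls add nothing to the medians. Of 15 white adipocyte genes 9 passed and 6 were called, such as the fatty acid binding protein Fabp4 (1.47 and 125 FPKM) and the fatty acid transporter Cd36 (5.51 and 216 FPKM). Acsl1 and Pnpla2, which act in fat metabolism of many cells, were at 112 and 159 FPKM and at 14.2 and 16.7 FPKM. Of 19 skeletal muscle genes, 9 passed and 9 were called. Mylpf, a light chain of fast muscle myosin, was at 2.99 and 118 FPKM, the troponin Tnni2 at 0.507 and 76.6, and Neb, with the smallest ratio of the 9, at 0.170 and 14.9 FPKM (log2 ratio 3.10). Over all 19 muscle genes, 18 lay above the centre. Of 13 endothelial genes, 4 passed and 4 were called, with the adhesion receptor Pecam1 at 0.0776 and 29.5 FPKM and the clotting factor gene Vwf at 0.302 and 11.2 FPKM. No endothelial gene exceeded 0.348 FPKM in WT keratinocytes, the value of Eng. Of 10 smooth muscle and pericyte genes, 7 passed and 6 were called, with smooth muscle actin, Acta2, at 1.61 and 88.6 FPKM and the pericyte gene Rgs5 at 0.0368 and 41.3 FPKM. The pericyte marker Cspg4, which basal keratinocytes also express, was at 11.6 and 6.01 FPKM. The list median was 2.25 for adipocytes, with a range of 0.30 to 3.26 over the alternative settings, and 2.49 for skeletal muscle (0.45 to 4.64). It was 1.71 for endothelium (0.16 to 4.17) and 2.85 for smooth muscle (0.82 to 5.07).

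The muscle genes also differed between the plucked libraries. Their summed FPKM was 436 in WT plucked skin and 67.4 in JunB cKO plucked skin, and in the JunB cKO pair 4 of the 9 genes were called, with a list median of 0.03. The summed FPKM of the fibroblast genes was 8027 and 3610, and that of the adipocyte genes 697 and 324. The keratinocyte libraries differed as well, with muscle sums of 7.4 FPKM in WT and 15.6 in JunB cKO, which lowers the JunB cKO ratios. With 1 pool per genotype, genotype and the piece of skin taken cannot be told apart.

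Several genes of macrophages were higher in WT plucked skin, whereas the Langerhans cell gene Cd207 was higher in WT keratinocytes. Of 15 macrophage and dendritic cell genes, 13 passed, 7 were called higher in plucked skin and 1 was called higher in keratinocytes (list median 1.57), and the 7 passed only through plucked skin. The lysozyme gene Lyz2 was at 0.691 FPKM in WT keratinocytes and 136 in WT plucked skin, and the macrophage receptor Mrc1 at 0.0578 and 25.3 FPKM. Cd207, which encodes langerin of the epidermal Langerhans cells, was at 23.4 and 8.40 FPKM (log2 ratio -2.05), and at 15.2 and 15.8 FPKM in JunB cKO, where it was not called. Cd74 and H2-Aa of antigen presentation were at 118 and 183 FPKM and at 66.1 and 143 FPKM, close to the centre, and H2-Ab1 was at 52.2 and 250.2 FPKM (log2 ratio 1.57). In JunB cKO 1 of the 13 genes was called higher in plucked skin (Lyz2, 1.64 and 51.5 FPKM). The complement gene C1qb (0.902 and 11.3 FPKM) was just under the limit. Of 8 mast cell genes, 2 passed, only through plucked skin, and were called higher there, the proteases Cma1 (listed at 0 and at 20.4 FPKM) and Cpa3 (0.0472 and 14.5 FPKM). Mcpt4, also a mast cell protease, was at 0.0749 and 9.48 FPKM. Of 9 T cell genes 2 passed and 0 were called, with the receptor chain Cd3g at 5.61 and 39.6 FPKM, and Thy1 as given among the fibroblast genes. None of 10 neutrophil genes and none of 4 red blood cell genes passed, and the highest among them were S100a9, Il1b (2.83 and 6.43 FPKM), Hba-a2 (1.63 FPKM and listed at 0) and Alas2 (1.02 and 5.41 FPKM).

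Keratinocyte genes were high in both libraries. The summed FPKM of the 13 basal genes was 6387 in WT keratinocytes and 5469 in WT plucked skin, and that of the 12 suprabasal genes 18048 and 16746. Relative to the centre they were lower in plucked skin, with medians of -1.09 and -1.41, and 3 basal and 2 suprabasal genes were called higher in keratinocytes, against 8.29% of all genes. The medians were weaker in the JunB cKO pair (-0.31 and -0.93) and in wild type without centring (-0.41 and -0.74). Krt5 (ENSMUSG00000061527.7, chr15:101707070-101712891), a keratin of the basal layer, was at 2592 FPKM in WT keratinocytes, 2690 in JunB cKO keratinocytes, 614 in WT plucked skin, 845 in JunB cKO plucked skin and 362 in WT wounds. Its partner Krt14 was at 1212, 1113, 2446, 1709 and 694 FPKM. The partners thus lay on opposite sides of the centre, with log2 ratios of -2.75 and 0.34. Col17a1 and Itgb4, hemidesmosome components that anchor basal cells, were at 645 and 179 FPKM and at 73.8 and 27.8 FPKM in wild type (log2 ratios -2.52 and -2.05), and were not called in JunB cKO (-0.85 and -0.79). The highest ratio among basal genes was that of Dst, a linker of keratins to hemidesmosomes that has a near-identical pseudogene, with 50.4 and 287 FPKM (log2 ratio 1.81).

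Of the suprabasal genes, Krt10 was at 3320 FPKM in WT keratinocytes and 2004 in WT plucked skin, and Krt1 at 917 and 805 FPKM. Lgals7 and Notch3 were called higher in keratinocytes (1712 and 640 FPKM, and 27.4 and 9.52 FPKM), but not in JunB cKO (log2 ratios -1.55 and -1.73). Krtdap, the most abundant gene of the list, was at 5447 and 9223 FPKM, near the centre (log2 ratio 0.09). Calml3 had the highest ratio (109 and 497 FPKM), and Krt2 was under the limit in both libraries (2.35 and 0.686 FPKM).

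Genes of the cornified envelope were not shifted together. Of 26 genes, 21 passed, 6 were called higher in plucked skin and 2 higher in keratinocytes. Over all 26, also those under 10 FPKM, 12 lay above and 14 below the centre, with a median of -0.33. Over the 21 that passed the median was 0.87. Over all genes, 10.5% and 8.29% were called in these directions. Flg (chr3:93273523-93293693), which encodes profilaggrin, was at 11.3 FPKM in WT keratinocytes, 46.1 in JunB cKO keratinocytes, 991 in WT plucked skin and 1487 in JunB cKO plucked skin. Flg2 was at 195 and 1260 FPKM in wild type, and Rptn at 0.540 and 47.1 FPKM. These genes consist largely of repeats, and the part of read placement in their FPKM was not tested. Sprr4 was at 47.4 and 654 FPKM, Lce1b at 25.3 and 253, and Lce1c at 34.8 and 233, and members of the Lce family resemble each other closely. Sprr4 and Lce1c were not called in JunB cKO (log2 ratios 0.72 and 1.55). Sprr1a, the most abundant gene of the list in keratinocytes, was at 477 and 258 FPKM (log2 ratio -1.56). In the other direction, Cnfn was at 65.3 and 3.61 FPKM (log2 ratio -4.52) and the protease Klk5 at 157.6 and 61.8 FPKM (log2 ratio -2.01). Lor was at 47.0 FPKM in WT and 213 in JunB cKO keratinocytes, and at 139 and 203 in plucked skin, and Ivl was at 103 and 144 FPKM in wild type. None of the 12 ceramide synthesis genes that passed was called, and their log2 ratios ranged from -1.56 for Elovl1 to 0.79 for Ugcg, with the most abundant, the elongase Elovl4, at 360.2 and 908 FPKM.

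Junction genes were mostly lower in plucked skin relative to the centre, with a median of -1.11. Genes called higher in keratinocytes included the connexin Gjb5 (90.2 and 9.31 FPKM) and the desmosome plaque gene Pkp3 (206 and 59.1 FPKM). Gja1, connexin 43, which dermal cells also express, was called higher in plucked skin (77.7 and 535 FPKM). In the JunB cKO pair Gjb5 was called (log2 ratio -2.35), while Pkp3 and Gja1 were not (-1.55 and 1.1). The desmosomal gene Dsp was at 1115 and 1874 FPKM, close to the centre (log2 ratio 0.08).

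Hair follicle genes were low in both wild type libraries or near the centre, with few exceptions. Of 15 genes of the outer root sheath and follicle stem cells 13 passed, Krt6a was called higher in plucked skin (19.7 and 226 FPKM), and Fgf18 was called higher in keratinocytes (13.8 FPKM, listed at 0 in plucked skin). Krt6a and Krt6b are near-identical, so that the split of their reads is uncertain. In JunB cKO Krt6a was not called (log2 ratio 0.78). Krt17 was at 755 and 1012 FPKM, and the stem cell genes Sox9 at 39.4 and 35.8, Lgr5 at 8.65 and 12.9, and Cd34, which dermal cells also express, at 32.5 and 84.9 FPKM. The inner root sheath genes summed to 97.1 FPKM in WT keratinocytes and 135 in WT plucked skin, and to 791 in JunB cKO plucked skin and 8982 in WT wounds. For the hair shaft genes the sums were 34.6, 39.1, 135 and 1977 FPKM. The factor Cux1, the most abundant of the former, was at 41.8 and 44.4 FPKM. Of the 11 inner root sheath genes 5 passed, with Tchhl1 called higher in plucked skin (0.222 and 15.9 FPKM) and Krt25 called higher in keratinocytes (15.0 and 5.28 FPKM). Of the 17 hair shaft genes Krt36 and Krt84 passed, at 10.2 and 10.3 FPKM in WT plucked skin, and both were called higher there, but they were listed at 0 and at 0.0655 FPKM in JunB cKO plucked skin. Foxn1, a factor of the hair matrix that was under the limit, was at 8.71 and 0.0814 FPKM.

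Most sebaceous gland genes were within 4-fold of the centre. Of 17 genes, 13 passed and 3 were called higher in plucked skin, where 10.5% of all genes were called, with a median of 0.45 and 13 genes above the centre. Awat1, a wax synthase of sebocytes, was at 8.12 FPKM in WT keratinocytes, 2.02 in JunB cKO keratinocytes, 69.0 in WT plucked skin and 34.4 in JunB cKO plucked skin. Soat1, which esterifies cholesterol, was at 24.1, 13.4, 217 and 142 FPKM. Pparg, a regulator of lipid cells that adipocytes also express, was at 3.36, 3.25, 34.8 and 15.7 FPKM. Scd1, the desaturase and the most abundant of the list, was at 392 and 826 FPKM in wild type, near the centre (log2 ratio 0.40), and Dgat2 was at 136 and 67.1 FPKM (log2 ratio -1.68).

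Cell division genes were not called in either direction. Of 20 genes, 9 passed, and the median was 0.54 with 15 genes above the centre. Mki67 was at 20.5 and 35.0 FPKM, Top2a at 17.7 and 34.9, Mcm6 at 14.8 and 41.0, Rrm2 at 9.41 and 11.6, and Pcna at 21.8 and 27.3 in WT keratinocytes and WT plucked skin. The largest ratio among them was that of Cdk1 (4.18 FPKM in WT keratinocytes, log2 ratio 1.71), and Mcm2, which did not pass, was at 6.50 and 5.19 FPKM. Of 20 genes of hedgehog and Wnt signals, 11 passed and 3 were called higher in keratinocytes, namely Wnt10a (28.2 and 9.11 FPKM), Wnt4 (22.9 and 8.12 FPKM) and the Wnt target Axin2 (20.8 and 6.51 FPKM). Axin2 was at 19.5 and 24.9 FPKM in JunB cKO and was not called there. Gli2, an effector of hedgehog signaling, had the highest ratio (2.85 and 16.7 FPKM, log2 ratio 1.53), and the most abundant in plucked skin was the receptor Lgr4 (20.1 and 43.4 FPKM). The ligand Shh was at 0.312 FPKM in WT keratinocytes and listed at 0 in WT plucked skin.

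Of 17 antimicrobial and alarm genes 6 passed, and 2 were called higher in plucked skin, Il18 (13.2 and 156 FPKM) and Il1f6 (0.260 and 10.9 FPKM), both cytokines of the interleukin 1 family. Defb6, a defensin and the most abundant gene of this list, was at 1343 and 1630 FPKM (log2 ratio -0.39), and Il33 at 31.2 and 26.1 FPKM (log2 ratio -0.92). S100a8 and S100a9 did not pass, with 2.16 FPKM and listed at 0, and 2.88 and 2.56 FPKM, while in JunB cKO plucked skin they were at 152 and 250.4 FPKM. Of the 8 Schwann cell genes 4 passed. Pmp22 and Mbp, which other cells also express, were at 24.2 and 44.0 FPKM and at 20.6 and 17.0 FPKM, and Egr2 is also in the immediate early list. Of the 9 melanocyte genes Dct (8.40 and 18.9 FPKM) and Mitf (5.59 and 16.3 FPKM) passed and 0 were called.

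**Figure D3:**
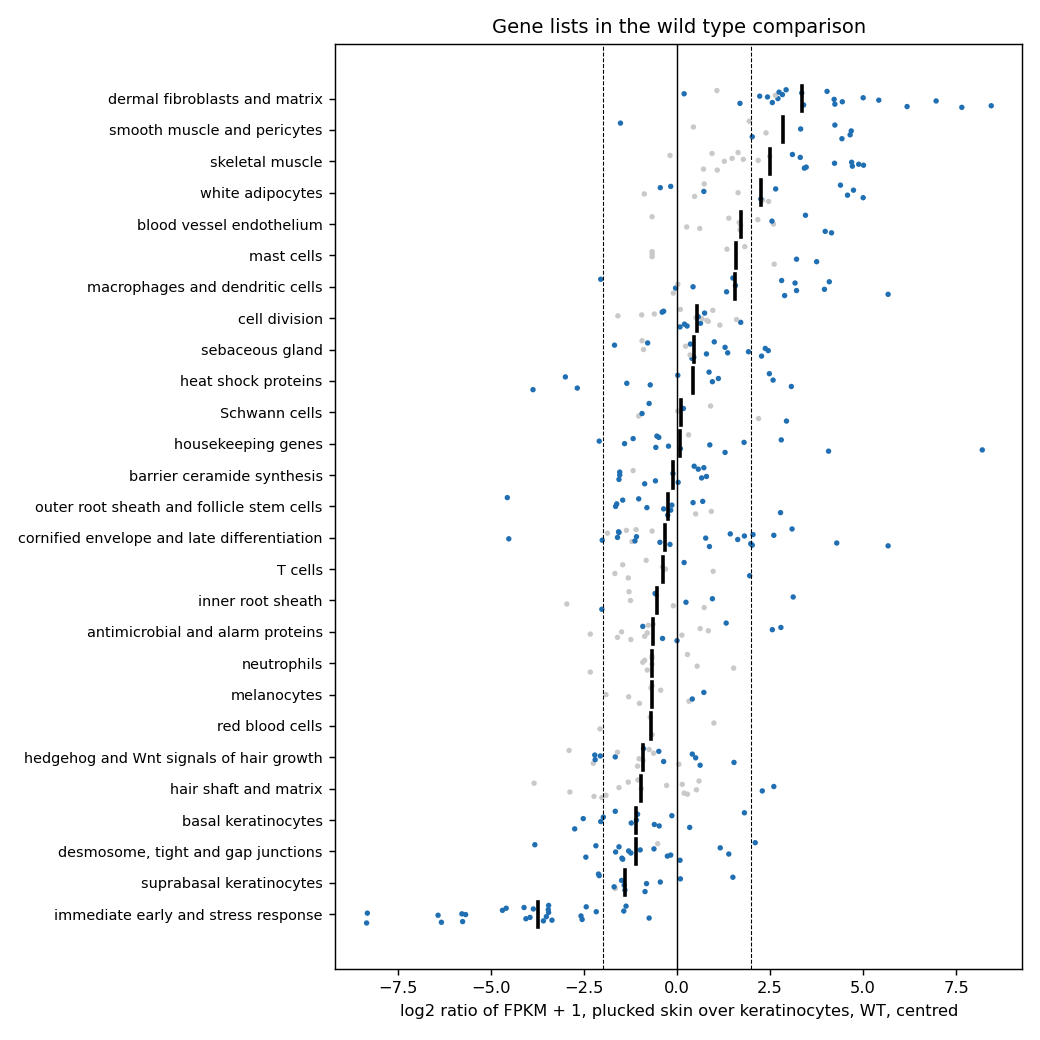
Centred log2 ratio of FPKM + 1, plucked skin over keratinocytes in wild type (x axis), of each gene in 27 lists (y axis, ordered by median), with genes at 10 FPKM or more in either library in blue, other genes in grey, the list median as a black bar and dashed lines at 4-fold. The fibroblast, smooth muscle, skeletal muscle, adipocyte and endothelial lists are at the top, with medians of 1.71 to 3.35, and the immediate early list is at the bottom with -3.72.

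Genes with an extreme ratio were then taken from the whole table. Among coding genes without a near-identical processed pseudogene or a nested small RNA gene, a restriction added after the values had been seen, and with status OK and a value above 0 in both tables and the same sign in JunB cKO, the 20 with the largest ratio included 6 fibroblast genes. Outside the lists there were Trim12c (2.56 and 309 FPKM), Klk6, a kallikrein protease (2.66 and 268), Ppp1r10 (13.3 and 1045), the transcription factor Zeb2 (0.458 and 85.4), Myl9, a smooth muscle myosin light chain (1.34 and 119), Lsp1 (2.46 and 173), Apod (0.449 and 65.1), Cald1 (2.05 and 112) and the complement gene C3 (0.791 and 61.9). In the JunB cKO pair 18 of the 20 were called, where 8% of all genes were called in this direction. The same sign in JunB cKO was required for entry, which favoured this agreement. The exceptions were Trim12c (3.05 and 6.97 FPKM) and Ppp1r10 (11.8 and 51.6 FPKM), and for both the WT plucked library had by far the highest value of the 4.

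The 20 genes with the smallest ratio in this class included 9 of the immediate early list. Outside the lists there were Arc, an immediate early gene known from neurons (41.8 and 0.408 FPKM), Prmt2 (73.9 and 1.99), Sf3b5 (36.8 and 0.976), Clca1 (21.8 and 0.355), the interferon-induced Eif2ak2 (169 and 11.2) and Ifi202b (92.6 and 6.64), Csrnp1 (50.4 and 3.26), Pou3f1 (46.0 and 3.11), Manbal (14.6 and 0.406) and Mad2l2 (11.04 and 0.128, with 10.3 FPKM in WT wounds). Ifi202b belongs to a family of close copies and its value is uncertain. Of these 20 genes, chosen with the same sign in JunB cKO, 14 were called in the JunB cKO pair, against 5.07% of all genes. Prmt2 was at 2.06 and 1.92 FPKM in JunB cKO and at 29.4 FPKM in WT wounds, so that its highest value was that of the WT keratinocyte library.

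In WT keratinocytes the 10 highest genes outside predicted and small RNA genes included Krtdap, Krt77 (3875 FPKM), Krt10, Krt5, Dmkn (2293), Perp (2112) and B2m (2087), together with Lars2 (3661), Rpl13a (2511) and Rplp1 (2349). Krt77, a suprabasal keratin, was at 1908 FPKM in WT plucked skin, Dmkn at 1428, Perp at 1068 and B2m at 2363. In WT plucked skin the 10 highest were Rps3 (12979 FPKM), Eif4a1 (10618), Krtdap (9223), Malat1 (7346), Actb (6132), Apoe (5873), Eif4a2 (5449), Eif4g2 (4781), Rpl4 (4686) and Eef1a1 (4294). Of these, Malat1, a nuclear noncoding RNA, was at 1242 FPKM in WT keratinocytes, Actb at 1571, Apoe at 1866 and Eef1a1 at 1463. Rps3, Eif4a1, Eif4a2, Eif4g2 and Rpl4 contain nested small RNA genes and were at 359, 25.2, 38.4, 158 and 691 FPKM in WT keratinocytes.

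The class of a gene went with its ratio. Of 75 ribosomal protein genes with a near-identical processed pseudogene, 37 were called higher in plucked skin and 3 higher in keratinocytes (median 1.90), and of the 4 without one 0 and 1, respectively (median -1.88). Of 595 other genes with such a pseudogene, 115 were called higher in plucked skin and 18 higher in keratinocytes (median 0.57), against 585 and 433 of 6344 genes without one (median -0.02). Among genes with status OK and a value above 0 in both tables and the same sign in JunB cKO, without predicted, small RNA and mitochondrial genes, the 10 largest ratios were those of Rps29, Rps12, Rpl5, Col3a1, Eif4a1, Rps27, Rpl38, Col1a1, Rps28 and Rpl17, of which all but the collagens have such a pseudogene. Rps29 was at 0.312 FPKM in WT keratinocytes and 872 in WT plucked skin, and at 2.12 and 936 in JunB cKO.

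The pseudogenes and small RNAs lay on the other side. The 266 predicted genes and pseudogenes had a median of -0.57, with 79 called higher in keratinocytes and 29 higher in plucked skin, and Gm9794, for example, was at 1087 and 2.76 FPKM. Of 79 small RNA genes, 56 were called higher in keratinocytes and 8 higher in plucked skin, and of 47 histone genes 24 and 1. Snord104, a small nucleolar RNA, was at 9085 FPKM in WT keratinocytes and 7616 in JunB cKO keratinocytes, and was listed at 0 in both plucked libraries. By the same rule, which leaves out Nr4a1 and Fosl1 because the plucked skin table gives them no status OK, the 10 smallest ratios included, besides immediate early genes, Arc and Prmt2, the genes Hist2h4 (416 and 6.09 FPKM), Wdr89 (330 and 7.08) and Rpl13a (2511 and 95.9), and those of histones and ribosomal proteins are uncertain because of near-identical copies. The summed FPKM of the small RNA genes was 516004 in WT keratinocytes and 147283 in WT plucked skin, and that of the ribosomal protein genes 18470 and 62201. How far the way of placing reads differed between the tables was not tested.

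**Figure D4:**
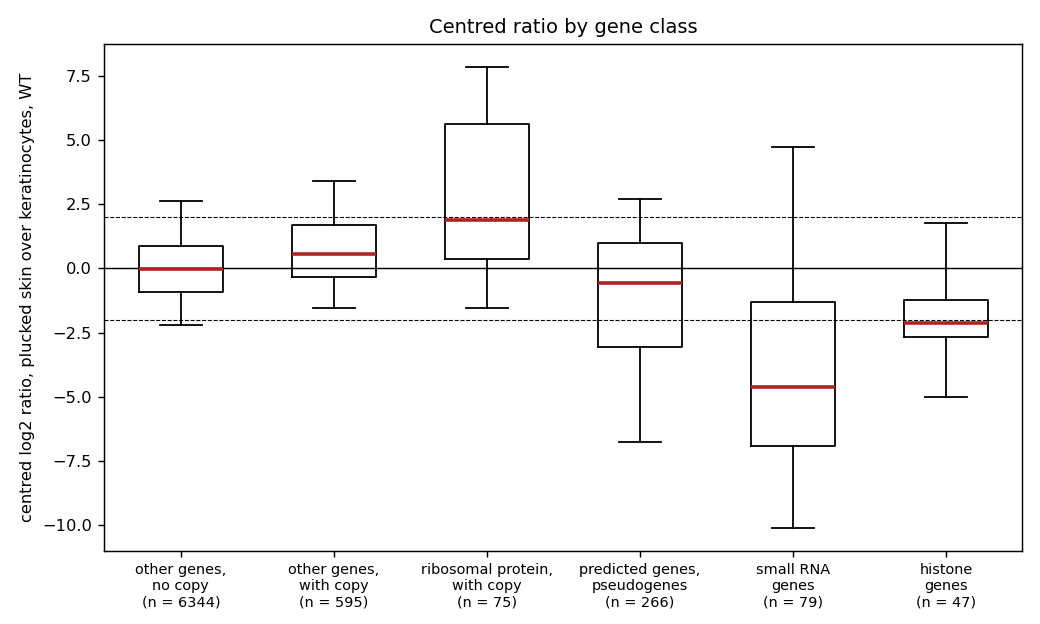
Centred log2 ratio, plucked skin over keratinocytes in wild type (y axis), by gene class, where a copy is a near-identical processed pseudogene. Boxes span the quartiles with the median in red, whiskers the 5th to 95th percentile of genes, and dashed lines 4-fold, with medians from 1.90 for ribosomal protein genes with a copy to -4.62 for small RNA genes.

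Among genes listed at 0 in one wild type library and at 100 FPKM or more in the other, 7 were at 0 in keratinocytes and 21 at 0 in plucked skin. The 7 were Ppia (468 FPKM in plucked skin), Zc3h7a (354), Rpl28 (185), Scarna17, Mir1970, Snord49a and Snord82. The 21 were Snord104, Snord16a, Snord100, Mir2137, Snord110, Snord69, Snord8, Snord34, Snord89, Mir703, Snora30, Mir762, Snord66, Mir27a, Snord61, Snord23, Gm5963, Gm12191, Rps15a-ps5, Rnu73b and Gm9769, which are small RNAs, predicted genes or pseudogenes. Of the housekeeping genes, Gapdh was also listed at 0 in both keratinocyte libraries and was at 25.8 and 27.0 FPKM in WT and JunB cKO plucked skin. Both Gapdh and Ppia, which every cell uses, have near-identical pseudogenes, and a value of 0 is not read as missing expression here. Zc3h7a has no such pseudogene, but its status in the keratinocyte table is HIDATA, given to loci with too many reads to be quantified. Its 0 in both keratinocyte libraries is therefore not a measured value. The 15 housekeeping genes had a median of 0.09. Ppia, Gapdh and Pgk1, which all have such pseudogenes, were called higher in plucked skin. In the class of single-copy coding genes, with the centre of all 7410 genes, 563 of 6098 genes (9.23%) were called higher in plucked skin and 421 (6.9%) higher in keratinocytes.

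In the JunB cKO pair, centred on its own median of 0.70, 593 genes (8%) of the same 7410 were called higher in plucked skin and 376 genes (5.07%) higher in keratinocytes. Called in both genotypes were 392 genes higher in plucked skin, which is 50.6% of the wild type and 66.1% of the JunB cKO calls, and 262 genes higher in keratinocytes, which is 42.7% and 69.7%. The sign was the same in JunB cKO for 687 of the 775 (88.6%) and 594 of the 614 (96.7%) wild type calls. Opposite calls were found for 13 genes, namely 8 that were higher in plucked skin in wild type and 5 that were higher in keratinocytes. The centred ratios of the genotypes differed by a median of 0.50 on the log2 scale, with a 90th percentile of 1.52. Pearson's r across the 7410 genes was 0.79, where genes are not independent and both pairs share the tables and the selection of genes by wild type values. This spread includes the genotype itself and is no replicate error. Genes near 0 in WT keratinocytes were partly higher in JunB cKO keratinocytes, with an endothelial sum of 1.4 and 7.92 FPKM, respectively. This lowers the JunB cKO ratios of such genes and enters the shared calls, the signs and the opposite calls.

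**Figure D5:**
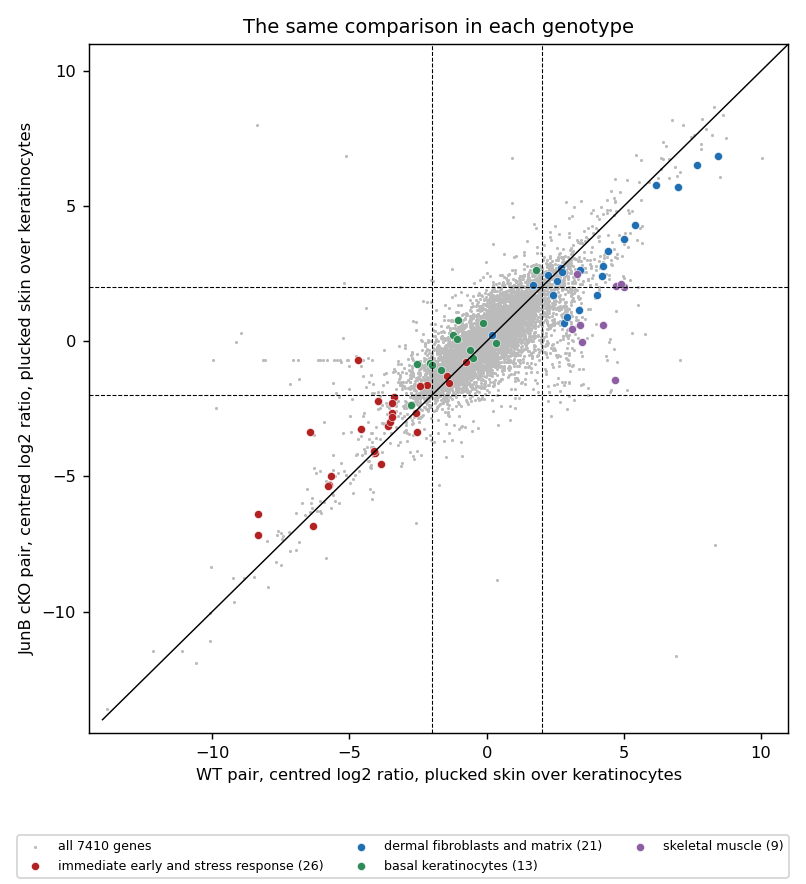
Centred log2 ratio, plucked skin over keratinocytes, of 7410 genes in the WT pair (x axis) and the JunB cKO pair (y axis), with 4 gene lists in colour, the line of equal values and dashed lines at 4-fold, 1 library per group. Immediate early genes lie at the lower left and fibroblast genes at the upper right, while several skeletal muscle genes lie below the diagonal (list medians 2.49 and 0.03).

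At the limit of 10 FPKM, the genes just inside were Tubb6, Zfp120 and 0610030E20Rik, whose higher wild type values were 10.003, 10.006 and 10.011 FPKM. Just outside were Lcorl, Etv5 and Zfyve27, at 9.9995, 9.998 and 9.991 FPKM. Symbols listed in only 1 of the tables could not enter, and 755 of 4876 such symbols in the keratinocyte table and 723 of 24572 in the plucked skin table were at 10 FPKM or more. Of the listed genes, Serpinb2, Cers3, Plet1, Krt72, Gata3, Krt85, Acta1, Egfl7, Adgre1, Trdc, Hbb-bs and Hbb-bt were not compared for this reason.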

How the data were processed

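For each group RNA from 3 samples was combined, rRNA was removed, and stranded libraries were read from one end over 75 bases. The authors trimmed and filtered the reads, mapped them to GRCm38 (mm10) with TopHat or HISAT2, assembled loci with Cufflinks and compared genotypes with Cuffdiff. Which mapper and annotation belong to which table is not given in the sources used here. The deposited values are FPKM per gene locus, 1 column per genotype and table. The deposited fold changes, test statistics, p-values, q-values and calls compare genotypes, belong to the authors' comparisons and were not used. Read numbers are not stated, so depth was estimated from the value of 1 read.

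Of 26457 loci in the keratinocyte table and 47990 in the plucked skin table, those with 1 symbol were used. Ratios were calculated with a pseudocount of 1, centred on the median of the genes at 10 FPKM or more in either library, and called at 4-fold. No test was made, since each group has 1 library. Named were Junb, list genes (including the most abundant and most extreme of a list), the 10 largest and 10 smallest ratios among genes with status OK and a value above 0 in both tables and the same sign in JunB cKO, without predicted, small RNA and mitochondrial genes, the 10 most abundant genes per library, genes at 0 in one library and at least 100 FPKM in the other, and 3 genes on each side of the limit. Any other gene was named with its values in view. A few list genes are not reported here. The genes compared and the 27 lists were chosen with earlier results of these data known. Gene types and identifiers came from GENCODE M21, which matched 7238 of the 7410 genes by symbol. Processed pseudogenes were aligned to coding transcripts with minimap2 2.31, and an alignment of at least 150 bases with 95% identity counted as near-identical. Promoters came from RefSeq (GRCm38.p6), for 19 of 26 immediate early genes. The calculation was tested on simulated data. Alternatives covered the pseudocount, the centring, ranks, the FPKM limit, the locus, the status, gene classes and the fold limit, and 2 (single-copy coding genes, matching locus ends) were added after the data were seen. Python 3.11.15 with pandas 2.3.3, numpy 2.4.6 and matplotlib 3.10.9 was used.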

Additional observations from a re-analysis of the deposited data

Results flagged for a closer look

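For 4 genes named in the text or in a list, the 4-fold difference was opposite in the WT and the JunB cKO pair. The difference between the genotypes was not tested, since each group has 1 library. Krt25, a keratin of the inner root sheath, had a centred log2 ratio of -2.02 in wild type (15.0 FPKM in keratinocytes and 5.28 in plucked skin) and 2.27 in JunB cKO (11.8 and 98.5 FPKM). Other inner root sheath genes were also higher in JunB cKO plucked skin, with 168 FPKM for Krt71 and 241 for Tchh against 26.1 and 22.3 in WT plucked skin. The other 3 were small RNA genes listed at 0 in 2 of the 4 libraries. Mir1970 had ratios of 8.34 and -7.54, Snord49a 6.90 and -11.66, and Snord66 -8.37 and 8.01 in wild type and JunB cKO, respectively. Such short RNAs are covered by few positions. Snord49a, for example, was listed at 0 in WT and at 1998 FPKM in JunB cKO keratinocytes.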

How the results depend on the processing

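Of 16 alternative settings for the counts of called genes, several moved a count by over 1.5 times. With a pseudocount of 10 there were 252 genes higher in WT plucked skin and 198 higher in WT keratinocytes, without centring 1403 and 302, with a minimum of 100 FPKM 222 and 124, at a 2-fold limit 1811 and 1748, and at an 8-fold limit 297 and 235. The count of genes higher in keratinocytes was 1024 with a minimum of 1 FPKM and with no minimum, 405 for single-copy coding genes centred on their own median and 408 for genes with matching locus ends, the last 2 being settings chosen after the data were seen. Over 10 settings, 269 list medians were recomputed. Of these 215 moved by less than 0.50 on the log2 scale, the median difference between the genotypes, 54 moved by more, and 0 of the medians of at least 1 in size changed sign. The 27 without centring moved by construction. The heat shock list changed from 0.44 to -1.68 with single-copy coding genes only, and the endothelial list ranged from 0.16 with a pseudocount of 10 to 4.17 for loci with status OK. The medians of the cornified envelope (-0.42 to 0.34), ceramide synthesis, outer and inner root sheath, T cell, neutrophil, melanocyte, red blood cell, Schwann cell, antimicrobial and housekeeping lists had different signs among settings. No paired analysis was possible because each compared group has 1 library, and leaving out a replicate was not possible for the same reason. At about 13 reads per FPKM on 1 kb, values under 1 FPKM rest on few reads.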
